A study of Homo sapiens with 6 samples.

Results

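PVT1 and PCAT1 are long noncoding RNA (lncRNA) genes on either side of the MYC oncogene at 8q24, and their transcripts were compared between the lung adenocarcinoma line A549 and the normal lung epithelial line HBE. The deposited table lists lncRNA transcripts that the authors had selected for a difference between the lines. Members were the rows with an Ensembl transcript identifier whose symbol, without its isoform number, was PVT1 or PCAT1. This gave 3 of 1437 transcripts: PVT1-213, PVT1-209 and PCAT1-207. Each group was 1 cell line with 3 samples, and no treatment or genetic change was labelled. A549 was grown in DMEM and HBE, whose name the labels also spell HEB, in RPMI-1640, so medium and line cannot be told apart. Separate cultures are not stated for the samples of 1 line, so p-values measure only how these samples varied, which may be technical variation.

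PVT1 lies just downstream of MYC and is often amplified together with it in tumours. It has many spliced forms, hosts several microRNAs, and has been tied to the stability of MYC protein and to induction by p53. PCAT1, named as a prostate cancer associated transcript, lies in the gene desert upstream of MYC and is known for its high level in some prostate tumours. MYC itself encodes a transcription factor that drives growth and division, and enhancers scattered over the region act on its promoter. MYC was not analysed here.

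Estimated counts and FPKM (fragments scaled by transcript length and library size) were given for each transcript and sample. Library sizes recovered from these columns were 55449504 to 57664810 in A549 and 49371791 to 56222625 in HBE. The listed transcripts made up 0.459% to 1.06% of the A549 libraries and 0.991% to 2.48% of the HBE libraries. RPPH1-201, the RNA of ribonuclease P, held 50.1% to 56.1% of the listed counts in A549 and 75.5% to 88.1% in HBE, and without it the shares overlapped, at 0.229% to 0.463% in A549 and 0.215% to 0.609% in HBE. As lncRNA markers of cell type, all 3 transcripts of MIR205HG, host of the epithelial microRNA miR-205, were at 0 in A549 and summed to 76.2 to 213 CPM (counts scaled to the library size) in HBE. Of the alveolar and club list, SFTA1P, a pseudogene of the surfactant-associated family, was in the table, and SFTA3 and NKX2-1-AS1 were not. Both listed SFTA1P transcripts were at 0 in every A549 sample and summed to 2.40 to 6.64 CPM in HBE. The mesenchymal list had 3 transcripts in the table, which summed to 0.243 to 1.05 CPM in A549 and 0.943 to 1.35 CPM in HBE. Of these, the 2 of MIR100HG were higher and FENDRR-205 was lower in A549. The blood and endothelial lists had 0 transcripts there.

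The members come from separate stretches of the locus. PVT1-213 (ENST00000522414) lies on the plus strand of chromosome 8 from 128096519 to 128099887 (GRCh38, GENCODE release 29), 302 kb into the gene and 1366 bases short of its end. Its 2 exons, of 136 and 518 bases, give a transcript of 654 bases. PVT1-209 (ENST00000520913) lies from 127890646 to 127932695, 96.1 kb into the gene, with exons of 353 and 231 bases and a length of 584 bases. The isoforms of PVT1 share no exonic base, and 164 kb separate them. PCAT1-207 (ENST00000524320) lies from 126556323 to 126557769 and has exons of 862 and 531 bases, 1393 bases in all. It sits at the very start of the annotated PCAT1 gene, which spans 863 kb. Measured from the annotated start of MYC, PCAT1-207 begins 1179 kb upstream, PVT1-209 155 kb downstream and PVT1-213 361 kb downstream. No other annotated transcript of the table begins between the members.

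**Figure D1:**
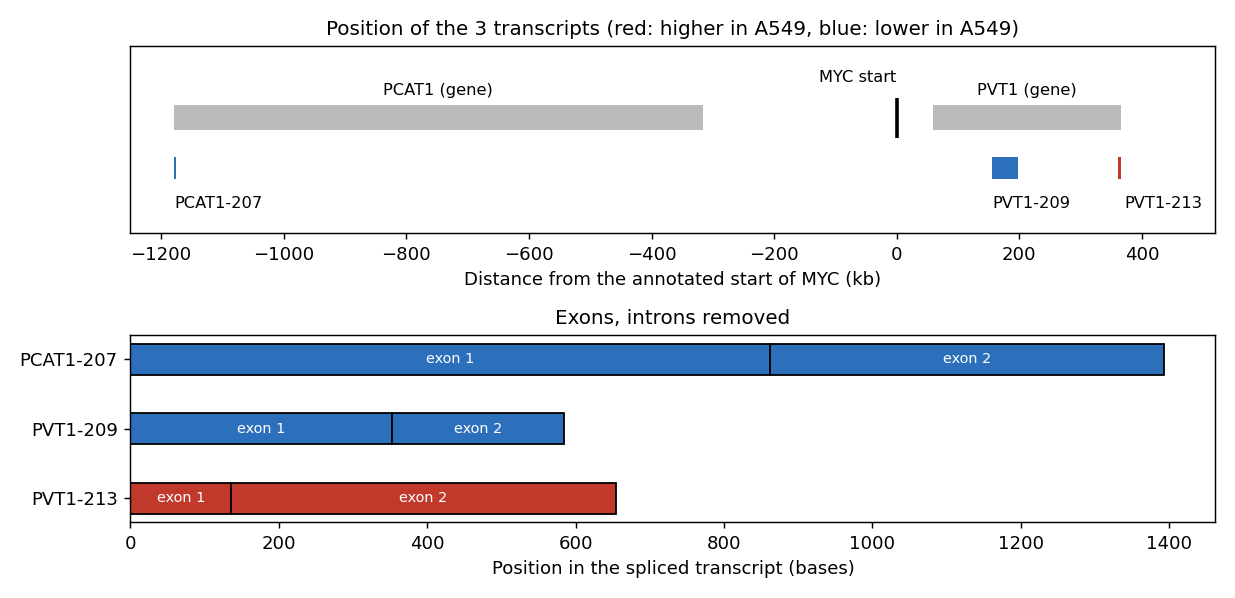
Upper panel: position of the PCAT1 and PVT1 genes (grey) and of the 3 transcripts, in kb from the annotated start of MYC; red is higher and blue is lower in A549. Lower panel: the 2 exons of each transcript drawn to scale in bases with introns removed, 654 bases for PVT1-213, 584 for PVT1-209 and 1393 for PCAT1-207.

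How much of each transcript is its own bears on its counts. GENCODE lists 25 transcripts of PVT1 and 32 of PCAT1, of which 2 and 1 were in the table, and the others were not analysed here. The first exon of PVT1-209 is overlapped by 11 of the other 24 PVT1 transcripts, and the second exon by 0, so 231 of its bases occur in no other annotated PVT1 transcript. Of PVT1-213, 314 bases occur in no other PVT1 transcript. The 4 microRNA genes annotated inside PVT1 overlap no exon of either isoform, while the small RNA annotation RF02166 covers 12.8% of PVT1-209. PCAT1-207 is overlapped by 1 of the other 31 PCAT1 transcripts. Exons of the protein-coding gene FAM84B lie opposite 79.6% of PCAT1-207. The sources used here do not give whether reads were counted by strand, so reads of FAM84B and PCAT1-207 may not be told apart. At 97% identity or more, PVT1-213 matched 0 other genes, PVT1-209 matched RF02166 alone and PCAT1-207 matched FAM84B alone, over the overlaps already given.

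PVT1-213 was higher in A549 than in HBE, at a low and even level in the cancer line. It had 29, 27 and 27 counts in A549 replicates 1 to 3, against 6, 2 and 9 counts in HBE replicates 1 to 3. All 3 A549 samples lay above all HBE samples. In RNA from bulk cultures, fewer cells with a transcript and less of it per cell cannot be told apart. The level per length was 0.780, 0.729 and 0.693 FPKM in A549 and 0.142, 0.0518 and 0.260 FPKM in HBE. The 3 A549 samples differed by 1.11-fold in CPM and the HBE samples by 4.73-fold. The HBE value rests on the 2 counts of replicate 2, fewer than the 3 counts taken below as the limit for a count of 0. Exact 95% Poisson intervals were 2.20 to 13.1, 0.242 to 7.22 and 4.12 to 17.1 counts in HBE replicates 1 to 3. They overlapped, so the HBE samples were not shown to differ by more than counting error. The mean was 0.491 ± 0.0251 CPM in A549 and 0.109 ± 0.0719 CPM in HBE (SD, n = 3 each). Over the summed counts A549 was 4.55-fold higher, with an exact 95% interval of 2.68 to 8.17 that covers counting error only. The log2 fold change was 2.15 with an SE of 0.87 (edgeR quasi-likelihood, Benjamini-Hochberg adjusted p = 0.0193). HBE replicate 2 had the fewest counts, and leaving it out gave a log2 fold change of 1.75 that no longer passed the threshold of 0.05 (edgeR quasi-likelihood, adjusted p = 0.101). Scalings taken from the table itself gave larger log2 fold changes for PVT1-213, 3.55 with DESeq2 size factors in edgeR, 3.53 with TMM, 3.59 by the DESeq2 Wald test and 3.40 with column totals. In the authors' deposited table the log2 fold change of PVT1-213 was 2.28 with a p-value of 0.00396.

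PVT1-209 was lower in A549, and the size of the difference varied with the HBE sample. It had 6, 10 and 12 counts in A549 replicates 1 to 3, against 115, 41 and 13 counts in HBE replicates 1 to 3. The lines did not overlap, but HBE replicate 3 stood close to the highest A549 sample. Per length the levels were 0.155, 0.289 and 0.347 FPKM in A549 and 3.48, 1.34 and 0.418 FPKM in HBE. HBE replicate 1 held 68.0% of the HBE counts, and the HBE samples differed by 7.77-fold in CPM. The exact 95% Poisson interval was 94.9 to 138 for the 115 counts of HBE replicate 1 and 6.92 to 22.2 for the 13 counts of replicate 3, so the HBE samples differed by more than counting error. The share of the library taken by the listed transcripts ran in the same order, at 2.48%, 2.18% and 0.991% in HBE replicates 1 to 3, or 0.609%, 0.259% and 0.215% without RPPH1-201, and its part in the result was not tested. Of the 752 transcripts lower in A549, 30.6% were highest in HBE replicate 1, 30.7% in replicate 2 and 38.7% in replicate 3. A difference between samples that touched only some transcripts need not show in these shares, and none was tested.

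The mean of PVT1-209 was 0.165 ± 0.0521 CPM in A549 and 1.03 ± 0.915 CPM in HBE (SD, n = 3 each). Its log2 fold change was -2.63 with an SE of 0.84 (edgeR quasi-likelihood, Benjamini-Hochberg adjusted p = 0.00443). The ratio of A549 to HBE over the summed counts was 0.154, with an exact 95% interval of 0.0995 to 0.231 for counting error. Leaving out HBE replicate 1 gave a log2 fold change of -1.66 that no longer passed (edgeR quasi-likelihood, adjusted p = 0.0703). The call at 0.05 was also lost under the scalings taken from the table itself, where the log2 fold change was -1.39 with TMM and -0.90 with column totals. The authors' deposited table gave a log2 fold change of -2.63 and a p-value of 0.00929 for PVT1-209.

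**Figure D2:**
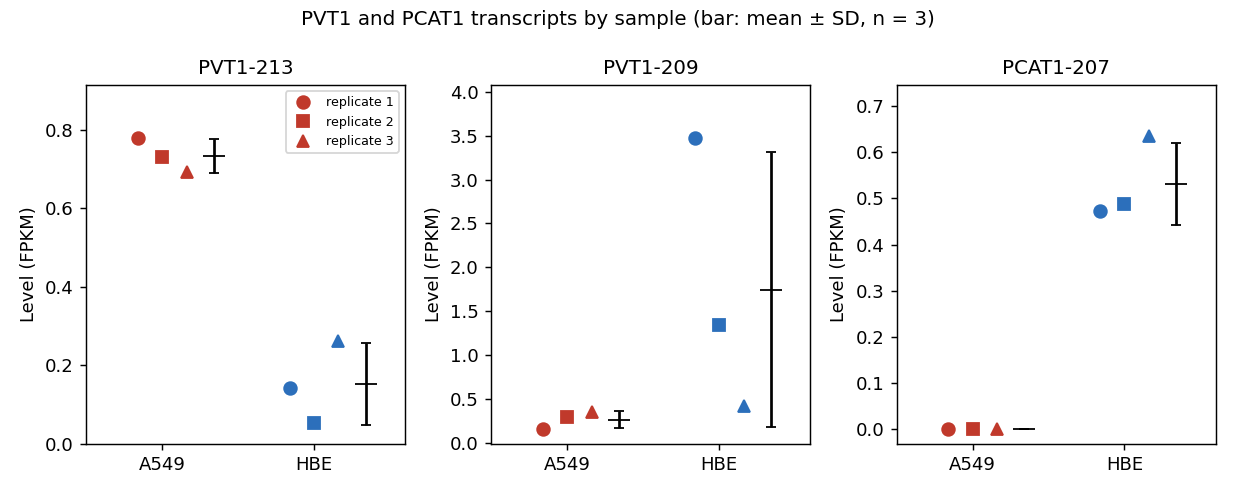
Level of each transcript in FPKM (y axis) in the A549 (red) and HBE (blue) samples, with the replicate given by the marker and the mean ± SD (n = 3) as a bar. PVT1-213 is at 0.693 to 0.780 FPKM in A549 and at most 0.260 FPKM in HBE, PVT1-209 spreads over 0.418 to 3.48 FPKM in HBE, and PCAT1-207 is at 0 in all A549 samples.

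By counts, the balance between the 2 listed isoforms of PVT1 differed in direction between the lines, though not clearly in HBE replicate 3. PVT1-213 made up 82.9%, 73.0% and 69.2% of the counts of both isoforms in A549 replicates 1 to 3. In HBE replicates 1 to 3 it made up 4.96%, 4.65% and 40.9%. PVT1-213 had the more counts of these isoforms in every A549 sample and the fewer in every HBE sample. These shares rest on 35, 37 and 39 counts in A549 and on 121, 43 and 22 counts in HBE. The exact (Clopper-Pearson) 95% interval of HBE replicate 3, 20.7% to 63.6%, overlapped those of A549 replicates 2 and 3, which began at 55.9% and 52.4%. It also covered equal shares, as HBE replicate 3 had 9 counts of PVT1-213 against 13 of PVT1-209. By FPKM the shares were 83.4%, 71.6% and 66.7% in A549 and 3.93%, 3.72% and 38.4% in HBE.

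On the log2 scale, with 0.5 count added, the ratio of PVT1-213 to PVT1-209 averaged 1.57 ± 0.55 in A549 and -2.90 ± 2.08 in HBE (SD, n = 3 each). The difference was 4.47 (exact permutation test, two-sided, p = 0.1), and 0.1 is the smallest p that 3 samples against 3 can give. Being taken within a sample, this ratio does not depend on library size. Because the authors chose both transcripts for a difference on the same samples, the ratio is not independent evidence of a change in isoform use. Of 58 genes with at least 2 annotated transcripts in the table, 4 (6.90%) had transcripts in both directions. A gene with no count in a line can only have all its transcripts in the same direction. As 809 of the 1437 transcripts were at 0 in a line, 6.90% is not the share among genes detected in both lines. The other three were CTBP1-DT, LRRC75A-AS1 and ZFAS1, named after their values were seen.

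**Figure D3:**
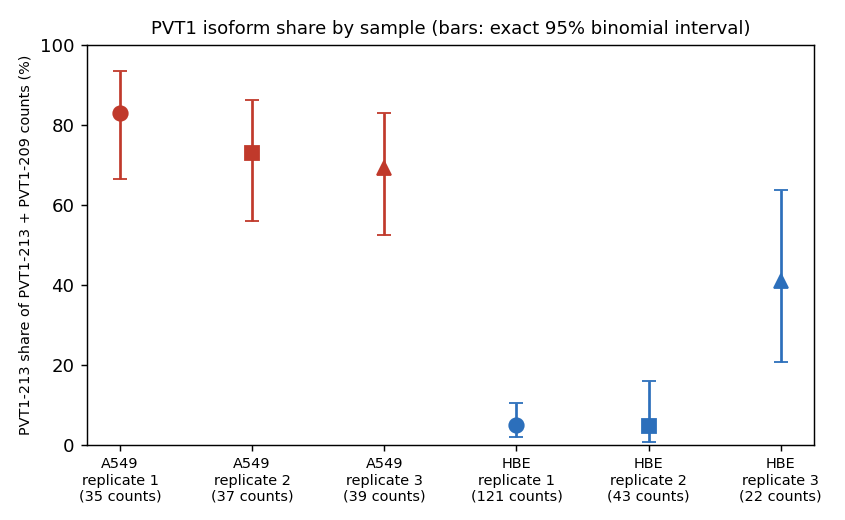
Share of PVT1-213 in the summed counts of PVT1-213 and PVT1-209 (%, y axis) in each A549 and HBE sample, with exact 95% binomial intervals and the number of counts under each sample. A549 samples lie at 69.2% to 82.9%, HBE replicates 1 and 2 near 5% and HBE replicate 3 at 40.9%.

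Summed over both isoforms, the PVT1 level overlapped between the lines. The sum was 0.625, 0.667 and 0.676 CPM in A549 replicates 1 to 3 and 2.15, 0.829 and 0.446 CPM in HBE replicates 1 to 3. HBE samples lay on both sides of the A549 samples. The mean was 0.656 ± 0.0273 CPM in A549 and 1.14 ± 0.895 CPM in HBE (SD, n = 3 each; exact permutation test, two-sided, p = 0.7, where 0.1 is the smallest p possible), so the test could not have passed 0.05 and does not show that the lines are alike. Without HBE replicate 1 the difference of A549 minus HBE, -0.486 CPM over all samples, was 0.0188 CPM, and without HBE replicate 3 it was -0.834 CPM. The sum covers only the listed isoforms and is not the level of the gene.

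PCAT1-207 was detected in HBE alone. It had 0 counts in each A549 sample, against 38, 36 and 44 counts in HBE replicates 1 to 3. The HBE samples were even, at 0.473, 0.488 and 0.634 FPKM, and differed by 1.32-fold in CPM. A count of 0 allows up to 0.0520 to 0.0541 CPM per A549 sample, taking 3 counts as the limit, while HBE averaged 0.754 ± 0.119 CPM (SD, n = 3). Against 3 counts over all A549 samples, the pooled HBE level of PCAT1-207 was 42.2-fold higher. This bound takes the HBE counts as exact, and it was 38.6-fold without HBE replicate 3. The bound was 27.8-fold without A549 replicate 3, with the same 3 counts set against fewer reads. The edgeR quasi-likelihood test gave an adjusted p of 1.58e-05 (Benjamini-Hochberg). In the authors' deposited table its p-value was 0.000131. Its counts may include reads of FAM84B, as described above, and FAM84B was not analysed here. Having no count in A549 was common in the table, at 398 transcripts or 27.7%.

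Most transcripts of the table were at a low level, with a median over transcripts of 0.145 FPKM in A549 and 0.211 FPKM in HBE. Each PVT1 isoform lay above the median in the line where it was higher, and PCAT1-207 did so in HBE. As 809 of the 1437 transcripts were at 0 in a line, which lowers these medians, this is not particular to the members. PVT1-209 was the most abundant in HBE, at 1.75 ± 1.57 FPKM (SD, n = 3), where 118 of the 1437 transcripts had a higher mean. In A549 PVT1-213 was the most abundant, at 0.734 ± 0.0432 FPKM (SD, n = 3), and 252 transcripts had a higher mean. The order of levels in A549 was PVT1-213, PVT1-209 at 0.264 ± 0.0982 FPKM, and PCAT1-207 at 0, and these ranges did not overlap. In HBE the order was PVT1-209, PCAT1-207 at 0.532 ± 0.0892 FPKM and PVT1-213 at 0.152 ± 0.105 FPKM (SD, n = 3 each). The range of PVT1-209 in HBE overlapped that of PCAT1-207, while PVT1-213 lay below both. All 3 members passed the threshold of 0.05, as did 99.9% of the table, and all 3 separated the lines without overlap, as did 99.2% of the table, 51.8% with A549 lower. These counts therefore say nothing particular about PVT1 or PCAT1. Members higher and lower in A549 numbered 1 and 2, against 47.6% higher and 52.3% lower in the table.

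The direction of each PVT1 isoform was the same under all 16 other processings, but the calls were not. PVT1-213 passed in 14 of them and PVT1-209 in 9. Both numbers include a pass with DESeq2 on the recovered library sizes, an alternative chosen after seeing the data. Over these processings the adjusted p ran from 4.88e-07 to 0.146 for PVT1-213 and from 0.000821 to 0.477 for PVT1-209, with the tools named in the plot of the settings. PCAT1-207 passed in all 16. Passing was common over the table, with 1240 to 1435 calls in the unfiltered processings, which tested 1435 to 1437 transcripts. With a filter of at least 10 counts in at least 3 samples, 941 of 943 transcripts passed. PVT1-213 met that filter through A549 alone and PCAT1-207 through HBE alone.

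**Figure D4:**
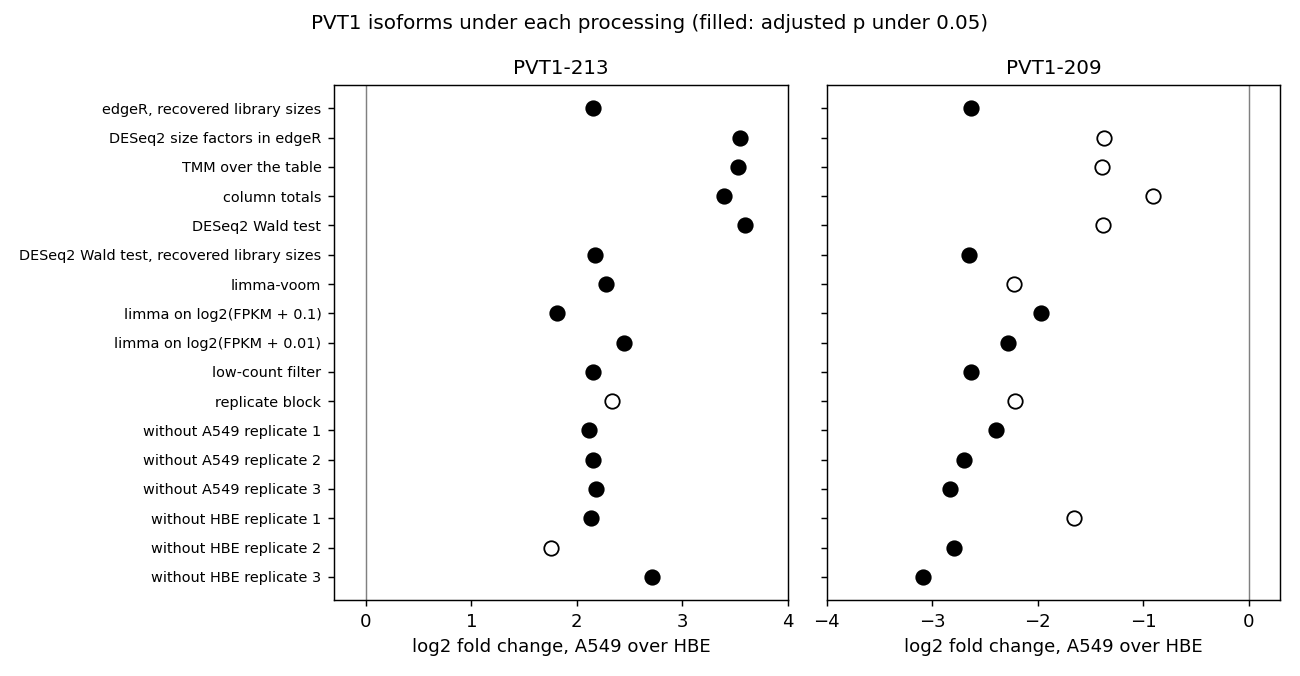
log2 fold change of A549 over HBE (x axis) for PVT1-213 and PVT1-209 under each processing (rows); filled points passed an adjusted p of 0.05 and open points did not. PVT1-213 stays above 0 and loses its call in 2 rows, and PVT1-209 stays below 0 and loses its call in 7.

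Annotated transcripts of other genes with the most similar values were sought by the root mean square distance of log2(CPM + 0.1) over the 6 samples. Nearest to PVT1-213 were AC123768.3-203 at 0.34, AC063943.1-201 at 0.35 and ACVR2B-AS1-201 at 0.44. AC123768.3-203 had 36, 38 and 35 counts in A549 and 4, 5 and 11 in HBE. Nearest to PVT1-209 were MIR4458HG-201 at 0.25, AC005696.4-201 at 0.63 and AP005432.2-201 at 0.63. MIR4458HG-201, of a microRNA host gene on chromosome 5, had 7, 10 and 15 counts in A549 and 100, 55 and 18 in HBE. Like PVT1-209 it was highest in HBE replicate 1 and lowest among HBE samples in replicate 3. Nearest to PCAT1-207 were FLJ12825-201 at 0.14, UCA1-217 at 0.15 and MIR205HG-208 at 0.15, each with no count in A549. None of these 9 transcripts lies on chromosome 8. That chromosome holds only 28 of the 688 annotated transcripts of the table, so this says nothing particular about the locus.

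The list of 8q24 neighbours held 23 gene names, among them CCAT1, CCAT2, CASC8, CASC11, CASC19, PRNCR1 and CCDC26. It also held protein-coding genes such as MYC, which a table of lncRNA transcripts could not contain. LINC00963 alone had transcripts in the table, and GENCODE places it on chromosome 9. It is thus no neighbour, and its 3 transcripts, all lower in A549, are not counted as such. The PCAT series of prostate cancer associated transcripts had 0 further transcripts in the table. As the table was selected for a difference, absence from it does not show that a gene was unexpressed or unchanged. Among lncRNAs tied to MYC or p53, 10 transcripts of 4 genes were listed, and 5 were higher and 5 lower in A549. The median log2 fold change of this list was -0.09, beside -2.00 over the whole table, a value that was the same with transcripts at 0 in a line set to their bound. No transcript of the list was near -0.09, the nearest being GAS5-213 at 1.39 and SNHG15-207 at -1.57. The table was selected for a difference, with medians of 6.20 among its higher and -6.39 among its lower transcripts. The medians therefore do not show the list as less changed than the table. MINCR-202, of a lncRNA induced by MYC, had 6, 32 and 26 counts in A549 and 1, 2 and 1 in HBE. It lies on chromosome 8 too, 15545 kb downstream of the MYC start. All 3 GAS5 transcripts, of a growth-arrest lncRNA, and NEAT1-201, of the paraspeckle lncRNA gene NEAT1, were higher in A549. The 5 SNHG15 transcripts were lower, and 3 or 4 of them lost their calls under the scalings taken from the table.

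Along chromosome 8 the members were not all of one direction. By position, AC100858.3-201, PCAT1-207 and PVT1-209 in turn were lower in A549. PVT1-213, PEG13-201 and ERICD-201, which followed, were higher, and AC100803.2-201 after them was lower again (log2 fold change -7.08). Whether such stretches differ from a random order was not tested. The table held 28 annotated transcripts of this chromosome, 12 higher and 16 lower in A549, with a median log2 fold change of -2.83. Without PVT1 and PCAT1, 11 were higher and 14 lower. The nearest upstream of PCAT1-207 was AC100858.3-201, 2924 kb from the MYC start, with 2, 0 and 0 counts in A549 and 22, 13 and 37 in HBE. The nearest downstream of PVT1-213 was PEG13-201, an imprinted lncRNA 12359.5 kb from the MYC start, with 46, 31 and 47 counts in A549 and 0, 2 and 6 in HBE. Next to it ERICD-201, of an E2F1-regulated inhibitor of cell death, had 122, 141 and 71 counts in A549 and 32, 27 and 20 in HBE. RHPN1-AS1-201, farther along the arm, was lower in A549, at 184, 123 and 173 counts against 553, 486 and 535 in HBE. Of the 28, 0 changed sign under the scalings taken from the table, while RHPN1-AS1-201, AC016877.3-201 and PVT1-209 lost their calls.

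**Figure D5:**
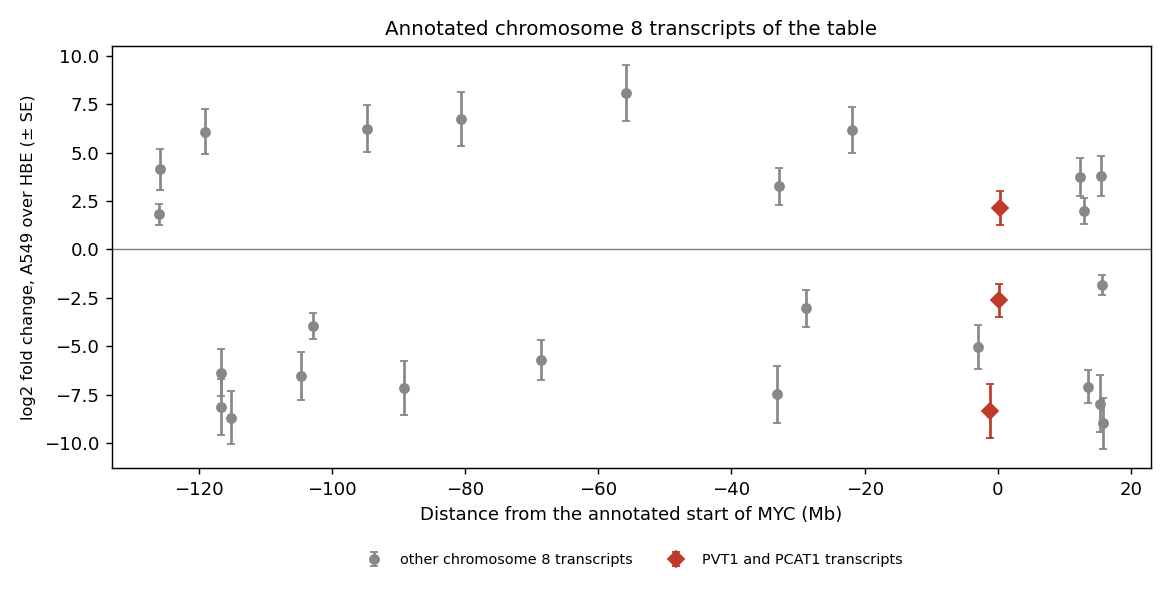
log2 fold change of A549 over HBE with its SE (y axis) for the 28 annotated chromosome 8 transcripts of the table, by distance from the annotated start of MYC in Mb (x axis). Red diamonds are the PVT1 and PCAT1 transcripts, 1 above and 2 below 0; values of transcripts with no count in a line, PCAT1-207 among them, depend on the prior count of the fit.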

How the data were processed

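RNA of 2 cell lines was sequenced, 3 samples each. Per the submitters' processing notes, HISAT2, StringTie, DESeq2 and the build GRCh38 were used, without versions. The deposited table gives estimated counts, FPKM, a p-value and a log2 fold change per transcript, as computed by the authors, for transcripts they selected (largest p-value 0.00997, smallest absolute log2 fold change 1.25), so tests on them are not independent evidence. The sources used here do not say if that p-value was adjusted.

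Library sizes were solved from deposited counts, FPKM and GENCODE 29 lengths. With counts taken as rounded up, 99.4% to 99.8% of nonzero annotated values per sample came within 1 count. Rounding up raises low counts, so FPKM is given too.

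All 1437 transcripts were fitted with edgeR 4.0.16 in R 4.3.3 (quasi-likelihood, Benjamini-Hochberg adjustment at 0.05), scaled by the recovered library sizes, without a low-count filter or block. The code was tested on simulated data with a smaller spread between samples and mostly unchanged transcripts. That test checks the code and not the calls in these data. The SE was the log2 fold change over the square root of F. Alternatives used limma 3.58.1 and DESeq2 1.42.0. Copies were sought with BLAST+ 2.17.0. Assembled transcripts carry no position and could not be assigned to the locus.

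Named transcripts were the members, the lists, chromosome 8 transcripts and the 3 nearest by distance. Members and lists were chosen with earlier results of these data known. Intervals cover counting error only, and limits from a count of 0 cover it only in the line at 0.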

Additional observations from a re-analysis of the deposited data

How the results depend on the processing

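PVT1-209, at a log2 fold change of -2.63, stayed lower in A549 but lost its call with DESeq2 size factors in edgeR (-1.37), TMM (-1.39), column totals (-0.90) and the DESeq2 Wald test (-1.38), all scaled from the selected table, and with limma-voom on the recovered library sizes (-2.22, adjusted p = 0.0560). In edgeR the median shift over all transcripts was 0.86 for TMM and for DESeq2 size factors and 1.10 for column totals. DESeq2 with the recovered library sizes, an alternative chosen after seeing the data, gave -2.65 and kept the call. Replicate numbers were not taken to pair the samples. Deviations of same-numbered samples from their line means correlated at 0.011, -0.0084 and -0.049. However, 809 of the 1437 transcripts were at 0 in a line, which draws such correlations towards 0, so they cannot settle whether samples were paired. With the replicate number as a block PVT1-209 was at -2.21 (adjusted p = 0.0751) and PVT1-213 at 2.33 (adjusted p = 0.146), neither past the threshold, and calls over the table numbered 1342. Leaving out 1 sample at a time gave -3.08 to -1.66 for PVT1-209, 1.75 to 2.71 for PVT1-213, 3.85 to 5.67 for the log2 isoform ratio and -0.834 to 0.0188 CPM for the PVT1 sum, which turned its sign without HBE replicate 1. Calls over the table were 1435, and 941 of 943 with a filter of at least 10 counts in at least 3 samples, which left fewer transcripts to test. They were 1408 to 1431 without 1 sample. Scalings from the table put 52.4% to 55.2% of calls higher in A549, against 47.7%. The members rest on 2 to 115 counts per sample where detected, which limits precision.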
